A study of Mus musculus with 6 samples.

Results

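The genes described here are 10 genes of the circadian clock, chosen by name: the activators Arntl, Clock and Npas2, the repressors Per1, Per2, Per3 and Cry1, and Dbp, Tef and Nr1d2, which the activators switch on. All 10 are on the array, with 19 probe sets (groups of short probes read as 1 value) annotated to a single gene, among 12393 genes and 22690 probe sets in all. A probe set was called dim when its mean lay in the lowest 30% of the array, below a log2 level of 6.09. Of the 19, 10 lay above that level. Because Npas2 and Per2 had dim probe sets only, 8 of the 10 genes entered the test across genes. Each of 6 tumours was read on an array of its own: 3 Bptf KD tumours, from 4T1 mouse mammary tumour cells given short hairpin RNAs against Bptf by the retrovirus MMLV, and 3 Control tumours, from 4T1 cells without that knockdown. Mice of the NSG strain (Ifrg2r -/- in the labels) received 10000 cells of either kind in a mammary fat pad, and the tumours were taken on day 21, with any necrotic tissue cut away before RNA was extracted. The sources used here do not give the hour at which each mouse was killed, the age and sex of the mice or what the Control cells carried. A tumour grown in a fat pad also holds fat, connective tissue, blood and muscle cells of the host, whose clocks are measured together with those of the 4T1 cells.

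The mammalian clock is a loop of transcription factors that feeds back on itself. The protein of Arntl (also called Bmal1) pairs with that of Clock, or of its close relative Npas2, and the pair binds short DNA motifs named E-boxes to switch on the Per and Cry genes, whose proteins return to the nucleus and block the pair. A second loop runs through the nuclear receptors of the Nr1d genes, which silence Arntl and Npas2, and through Rora, which activates them at the same site. Dbp and Tef are leucine zipper factors that bind motifs named D-boxes, where Nfil3 competes with them as a repressor. In a tissue whose cells run in step, Arntl and Npas2 are high when Dbp, Nr1d1 and the Per genes are low and the reverse, so that samples taken at different hours differ in opposite directions in these groups.

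Promoter sequences are shown for 5 members. Per1 and Cry1 were the 2 tested members whose groups did not overlap. Tef and Dbp moved together across tumours on their brightest probe sets, and the Per3 promoter holds D-boxes. Each sequence is the 250 bases before a gene's start, written 5′ to 3′ along the gene, from RefSeq on GRCm38.p6. Of the 10 members, 9 had a promoter in that set and Per2 was not among them. Per1 and Tef have 2 starts each there, and the first listed is printed. Capitals mark the motifs found on either strand: the E-box CACGTG, its variant CACGTT, the D-box written as TTATGTAA or TTACGTAA, and the ROR half-site AGGTCA.
Per1, chr11:69098699-69098948, + strand: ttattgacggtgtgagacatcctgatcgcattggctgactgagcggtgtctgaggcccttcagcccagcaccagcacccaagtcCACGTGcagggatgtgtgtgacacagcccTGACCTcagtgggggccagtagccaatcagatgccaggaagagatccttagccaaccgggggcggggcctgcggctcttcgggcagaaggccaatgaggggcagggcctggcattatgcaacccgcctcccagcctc
Cry1, chr10:85185055-85185304, - strand: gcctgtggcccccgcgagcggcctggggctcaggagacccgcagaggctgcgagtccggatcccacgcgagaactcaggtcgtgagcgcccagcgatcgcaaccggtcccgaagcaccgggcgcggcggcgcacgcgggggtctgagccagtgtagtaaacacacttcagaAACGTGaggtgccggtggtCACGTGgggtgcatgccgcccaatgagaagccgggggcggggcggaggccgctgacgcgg
Tef, chr15:81802423-81802672, + strand: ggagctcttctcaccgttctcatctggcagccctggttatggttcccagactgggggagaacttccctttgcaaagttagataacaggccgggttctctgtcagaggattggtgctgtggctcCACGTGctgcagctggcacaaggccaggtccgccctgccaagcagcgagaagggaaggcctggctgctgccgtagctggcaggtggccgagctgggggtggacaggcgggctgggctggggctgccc
Dbp, chr7:45704997-45705246, + strand: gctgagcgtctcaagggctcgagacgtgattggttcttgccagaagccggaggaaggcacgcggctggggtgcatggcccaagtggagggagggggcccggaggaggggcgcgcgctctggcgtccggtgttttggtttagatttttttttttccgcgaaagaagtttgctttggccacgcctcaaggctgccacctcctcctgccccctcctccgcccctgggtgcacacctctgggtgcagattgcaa
Per3, chr4:151044666-151044915, - strand: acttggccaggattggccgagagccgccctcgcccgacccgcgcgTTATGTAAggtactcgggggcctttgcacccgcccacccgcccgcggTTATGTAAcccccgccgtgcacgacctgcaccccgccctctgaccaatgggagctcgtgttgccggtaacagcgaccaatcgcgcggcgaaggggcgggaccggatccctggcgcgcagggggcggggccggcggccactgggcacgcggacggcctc

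Per1 held an E-box 166 bases before its start and a ROR half-site at 137 in the window shown, and no motif in its second window. Cry1 held an E-box at 60 bases and the variant, read on the opposite strand, at 79. Tef held an E-box at 127 bases in the window shown and another at 138 in its second window. Per3 held the D-box TTATGTAA at 205 and again at 158 bases, and the Dbp window held no motif of those searched. Of the members not shown, Arntl and Npas2 held none, while Nr1d2, and Clock in 1 of its 3 windows, held a ROR half-site. Among 32851 promoter windows of the same length, 6.02% held CACGTG, 3.85% CACGTT, 0.819% TTATGTAA, 0.113% TTACGTAA and 14.0% AGGTCA. The motifs do not overlap each other in these windows. A match describes the letters and is not a measured binding site.

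The arrays had median log2 levels of 7.65 to 7.70 in the Bptf KD tumours and 7.60 to 7.70 in the Control tumours. Bptf, the target of the hairpins, read 9.60, 9.56 and 9.99 on its brightest probe set in Bptf KD tumours 1, 2 and 3, while Controls 1, 2 and 3 had 10.69, 9.77 and 10.59. The difference of -0.63 (SE 0.27) did not pass limma's test across genes (adjusted p = 0.371), and was -0.92 without Control 2 (limma adjusted p = 0.0305). Control 2 went against its label: on the other 3 Bptf probe sets it lay below every Bptf KD tumour. It is called the tumour labelled Control 2 from here on, and values without it are given beside those results that it moves most. Across genes it correlated with the other Controls at 0.934 and 0.939, against 0.984 to 0.988 among Bptf KD tumours. The mean of the skeletal muscle markers, of which 18 of 19 lay above the dim level, was 6.39 to 9.08 in Bptf KD tumours, 8.61 in Control 1, 6.51 in Control 3 and highest, at 11.2, in the tumour labelled Control 2. Its 3′ minus 5′ difference of the Actb control probe sets, a sign of how complete the RNA is, was the highest too, at 1.23, against 0.76 to 1.05 elsewhere. All 11 epithelial markers listed for 4T1 cells lay above the dim level.

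Among the activators, no member passed the test. Arntl had log2 levels of 8.07, 8.33 and 8.10 in Bptf KD tumours 1 to 3, while the Controls, in the same order, had 7.77, 8.35 and 7.91. Bptf KD 2 and the tumour labelled Control 2 were both high, and the groups overlapped. The means were 8.17 ± 0.14 in Bptf KD and 8.01 ± 0.30 in Control tumours (SD, n = 3 each), a difference of 0.16 (SE 0.18, 95% interval -0.27 to 0.58, limma adjusted p = 0.777). Without the tumour labelled Control 2 the difference was 0.33 (95% interval 0.024 to 0.63, limma adjusted p = 0.160), and the 3 Bptf KD tumours then lay above both Controls.

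Clock, the partner of Arntl that carries a histone acetyltransferase activity, read 9.54, 9.75 and 9.58 in Bptf KD tumours and 9.70, 10.13 and 9.79 in Control tumours. The groups overlapped only through Bptf KD 2 and Control 1. The difference was -0.25 (SE 0.15, 95% interval -0.61 to 0.11, limma adjusted p = 0.555), and -0.12 without the tumour labelled Control 2. The 2 probe sets of Clock disagreed in sign. The dimmer of them, also above the dim level, read 8.36, 8.20 and 8.28 in Bptf KD tumours against 8.20, 8.12 and 8.31 in Control tumours, a difference of 0.070. Npas2, which can stand in for Clock, was dim on both probe sets. The brighter gave 5.72 to 5.76 in Bptf KD tumours and 5.66 to 6.02 in Control tumours, below the dim level throughout, and RMA values carry no detection call. The other gave 4.22 to 4.34 in Bptf KD tumours and 4.55 to 5.0 in Control tumours. These groups did not overlap (adjusted p = 0.317 by limma over every probe set, a fit that called 0.208% of them).

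Of the repressors, Cry1 and Per1 were the members with no overlap between groups. Cry1, a direct inhibitor of the Arntl and Clock pair, read 8.36, 8.45 and 8.28 in Bptf KD tumours, against 8.54, 8.82 and 8.72 in Control tumours. Every Bptf KD tumour lay below every Control tumour, by 0.33 on average (8.36 ± 0.085 in Bptf KD and 8.69 ± 0.14 in Control tumours, SD, n = 3 each), which is a ratio of 0.796 of Bptf KD over Control. The difference of -0.33 (SE 0.13) had a 95% interval of -0.63 to -0.030 and did not pass over all genes (limma p = 0.0354, adjusted p = 0.337; exact two-sided permutation p = 0.1, the smallest that 3 against 3 can give). It passed when limma weighted the arrays (-0.34, adjusted p = 0.0387; range over all alternatives 0.0387 to 0.735), a setting that called 1676 genes. Without the tumour labelled Control 2 the difference was -0.27 (limma adjusted p = 0.199).

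Per1, a repressor that also responds quickly to outside signals, read 7.12, 7.06 and 7.06 in Bptf KD tumours, against 7.46, 7.20 and 7.22 in Control tumours. The groups did not overlap, but the nearest tumours were close, and Control 1 stood highest. The means were 7.08 ± 0.035 in Bptf KD and 7.29 ± 0.14 in Control tumours (SD, n = 3 each), a difference of -0.21 (SE 0.12, 95% interval -0.50 to 0.077, limma adjusted p = 0.525). It was -0.13 without Control 1. Its spread over the 6 tumours, 0.40 between the highest and the lowest, stood at the 23.7th percentile of the genes tested, so Per1 was among the steadier genes.

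Per3, the member with the widest spread, read 6.61, 6.87 and 7.11 in Bptf KD tumours, against 7.20, 6.19 and 6.87 in Control tumours. Control 1 held the highest value and the tumour labelled Control 2 the lowest, and the range of 1.01 was at the 80.3rd percentile of the genes tested. The difference of 0.11 (SE 0.27, 95% interval -0.54 to 0.76, limma adjusted p = 0.907) was -0.17 without the tumour labelled Control 2. The other 2 probe sets of Per3 were dim and spanned 0.16 and 0.32 over the 6 tumours. Per2, the repressor whose loss most disturbs rhythms in mice, was dim on both probe sets. The brighter read 5.68, 5.63 and 5.83 in Bptf KD tumours, against 6.10, 5.40 and 5.60 in Control tumours, with only Control 1 above the dim level.

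Of the genes the activators switch on, Dbp, whose transcript swings widely over the day in mouse tissues, read 7.77, 8.43 and 7.81 in Bptf KD tumours, against 7.98, 8.24 and 7.68 in Control tumours. Bptf KD 2 and the tumour labelled Control 2 were the highest of their groups, as for Arntl. The means were 8.0 ± 0.37 in Bptf KD and 7.97 ± 0.28 in Control tumours (SD, n = 3 each), a difference of 0.037 (SE 0.23, 95% interval -0.51 to 0.58, limma adjusted p = 0.968). Without the tumour labelled Control 2 it was 0.17, and without Bptf KD 2 it was -0.18. A second probe set above the dim level gave the same picture, with 6.56, 7.12 and 6.57 in Bptf KD tumours and 6.89, 6.99 and 6.42 in Control tumours. The spread within each group was several times the difference between them.

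Tef, which binds the same D-box as Dbp, read 9.04, 9.28 and 9.23 in Bptf KD tumours, against 9.17, 9.43 and 8.88 in Control tumours. The highest and the lowest tumour were both Controls. The difference was 0.023 (SE 0.17, 95% interval -0.38 to 0.42, limma adjusted p = 0.974), with 0.16 when the tumour labelled Control 2 was left out and -0.12 when Control 3 was. Nr1d2, a nuclear receptor that silences Arntl, read 11.15, 11.41 and 11.67 in Bptf KD tumours, against 11.29, 10.93 and 11.25 in Control tumours. Bptf KD 2 and 3 lay above every Control, while Bptf KD 1 lay within the Control range, and the difference of 0.25 (SE 0.18, 95% interval -0.17 to 0.67) did not pass (limma adjusted p = 0.620). It was 0.14 without the tumour labelled Control 2 and 0.12 without Bptf KD 3. The second probe set of Nr1d2, which was dim, differed by -0.067.

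**Figure D1:**
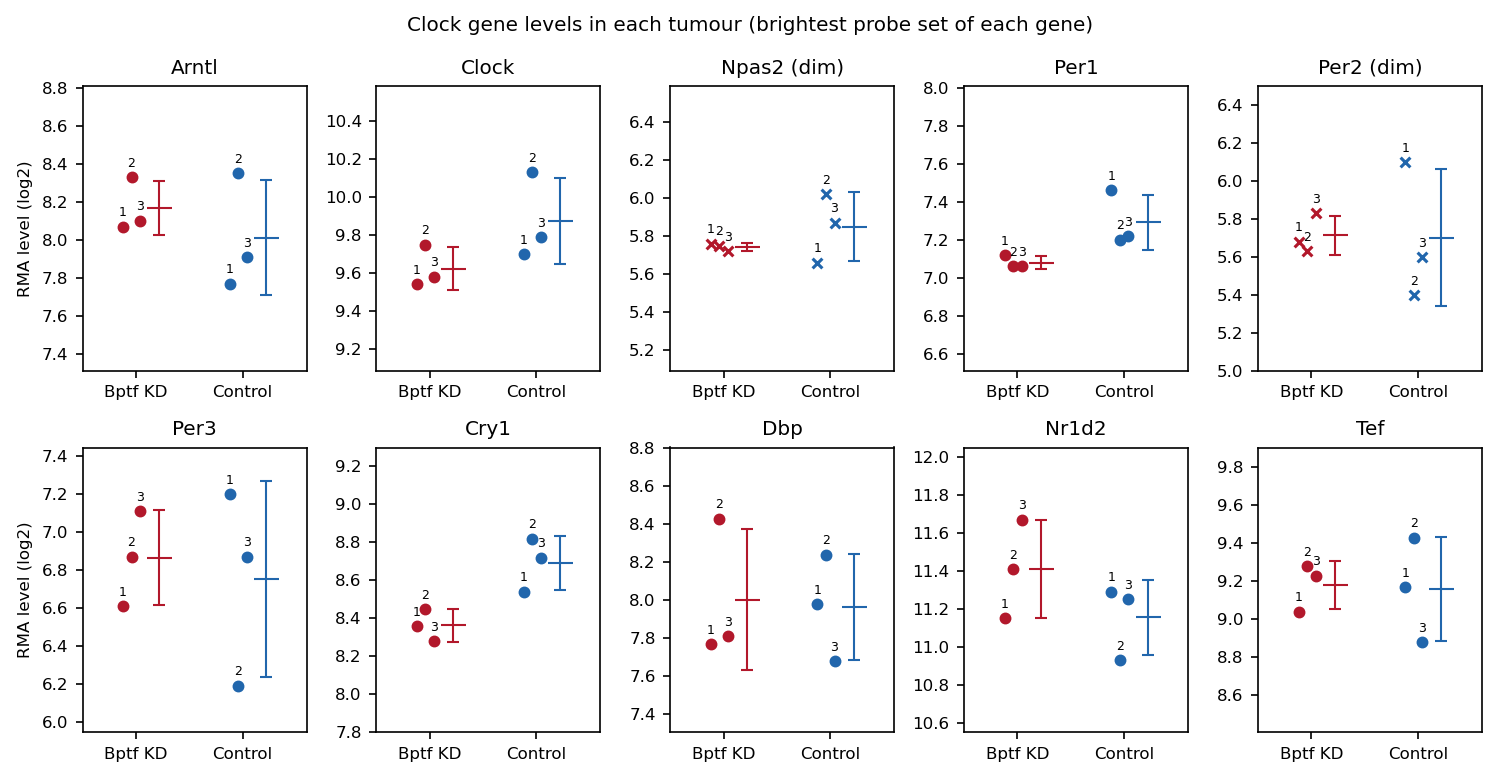
Log2 RMA level of the brightest probe set of each of the 10 clock genes (y axis, 1.5 log2 units in every panel) in Bptf KD tumours and Control tumours. Points are tumours with their number, bars are the mean ± SD of 3, and crosses mark the 2 dim genes. The groups do not overlap for Per1 and Cry1 and overlap for the other 8.

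In all, 0 of the 8 tested clock genes passed limma's threshold (adjusted p under 0.05), against 0.811% of the 9248 genes tested (0.151% higher and 0.660% lower in Bptf KD tumours). At an unadjusted p under 0.05 there was 1 of 8, Cry1, against 13.5% of all genes. The groups did not overlap in 2 of 8, against 20.0% of all genes, and both were lower in Bptf KD tumours, a direction found in 8.17% of all genes, where 11.8% lay above. The counts of 0, 1 and 2 of 8 lie near their background shares, and the direction of the 2 is a description that was not tested. Without the tumour labelled Control 2 limma called 0 of 8, against 4.46% of all genes, and 1 of 8, Arntl, had an unadjusted p under 0.05, against 27.0% of all genes. Of the 8, 5 had a positive difference and 3 a negative one, with a median of 0.030, beside 0.060 over all genes tested. The median range over the 6 tumours was 0.585 for the 8 and 0.620 for all genes, so the clock genes varied about as much from tumour to tumour as other genes did. The 95% intervals were between 0.580 and 1.30 log2 units wide, which sets the precision that 3 tumours a group gave.

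**Figure D2:**
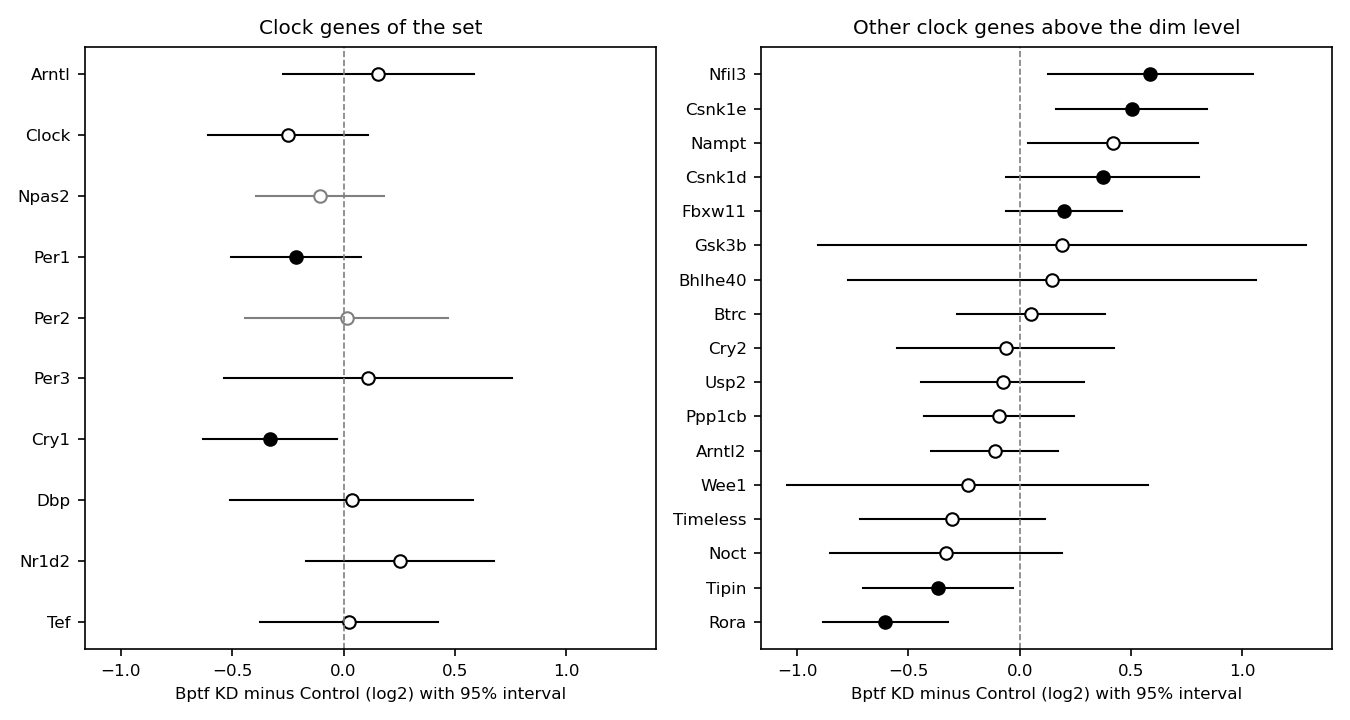
Difference between Bptf KD and Control tumours (x axis, log2, Bptf KD minus Control) with its 95% interval from limma, for the 10 clock genes and for 17 other clock genes above the dim level. Filled points mark genes whose groups do not overlap, and grey marks dim genes. Of the 10 intervals on the left, that of Cry1 alone leaves out 0, at -0.63 to -0.030.

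The rule of opposite phase was then read tumour by tumour, each gene's level being taken as a deviation from its own mean over the 6 tumours. Arntl stood for the activators and Per1, Per3 and Dbp for the opposite group, because Npas2, Per2 and Nr1d1 were dim. Arntl minus the mean of the other 3 gave 0.14, 0.12 and 0.012 in Bptf KD tumours 1 to 3, whereas Controls 1 to 3 had -0.54, 0.38 and -0.11. The Bptf KD tumours were close together, and the 2 extremes were Control 1 and the tumour labelled Control 2. The means were 0.089 ± 0.069 in Bptf KD and -0.089 ± 0.46 in Control tumours (SD, n = 3 each), a difference of 0.18 that was 0.41 without the tumour labelled Control 2 and -0.046 without Control 1. No p is given, since the genes of this score were chosen by name with earlier results of these data known. With Clock, Nr1d2 and Tef added to their groups the difference was -0.089.

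Control 1 showed the opposition most plainly. On the brightest probe sets, Arntl deviated there by -0.32, while Per1 deviated by 0.27, Per3 by 0.39 and the dim Per2 by 0.39. Dbp deviated by -0.0050, so Per1 and these probe sets of Per2 and Per3, and not Dbp, carried the opposition. Control 1 did not lie above the mean of the tumours on the other probe sets of Per2 and Per3, all dim. It read 5.67 on that of Per2 (mean 5.675) and 6.0 and 5.40 on those of Per3 (means 6.04 and 5.60). In the tumour labelled Control 2 the Per3 deviation was -0.62 beside 0.26 for Arntl, but Dbp was high as well, at 0.26, and so was Tef, at 0.26. Bptf KD 2 had Arntl at 0.24 and Dbp at 0.44, both high.

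Arntl and Dbp therefore did not oppose each other. Counting a tumour as high or low for a gene at a deviation of at least 0.1, a limit chosen after the values were seen, Arntl and Dbp were both past it in 3 tumours and went the same way in all 3: high in Bptf KD 2 and the tumour labelled Control 2 and low in Control 3. Arntl and Tef went the same way in the same 3 tumours. Dbp and Tef were both past it in 4 and went the same way in 4. Both counts for Tef use its brightest probe set. Its other 2 probe sets, both dim, split in the tumour labelled Control 2. There 1 had its lowest value (5.57, mean 5.94) and the other its highest (5.93, mean 5.81). Arntl and Per1 were both past it in 2 tumours, Bptf KD 2 and Control 1, and opposed each other in 2. Arntl and Per3, on its brightest probe set, opposed each other in 2 of 2, Control 1 and the tumour labelled Control 2. The other 2 probe sets of Per3, both dim, did not repeat this. They read 6.0 and 5.40 in Control 1 and 6.08 and 5.62 in the tumour labelled Control 2. Per3 and Nr1d2 went the same way in 3 of 3, among them the tumour labelled Control 2, where both were lowest. Of clock genes outside the members, Cry2 and Bhlhe40 each opposed Arntl in 3 of 3 tumours, the Controls. Rora opposed Arntl in 3 of 4 and Nfil3 in 1 of 3. The dim Nr1d1 deviated by -0.38 in Bptf KD 2 and by 0.11, -0.16 and 0.36 in Controls 1 to 3, each time opposite to Arntl.

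The Actb 3′ minus 5′ difference was highest in the same tumours in which Arntl and Dbp were high: 0.92, 1.05 and 0.76 in Bptf KD tumours 1 to 3, while Controls 1 to 3 had 0.76, 1.23 and 0.77. Its part in these deviations was not tested. The like difference for Gapdh ran from -0.040 to 0.040 in Bptf KD and from -0.080 to 0.060 in Control tumours. The skeletal muscle mean was lowest in Bptf KD 2 (6.39) and highest in the tumour labelled Control 2 (11.2), the 2 tumours with high Arntl and Dbp. The part of muscle in these deviations was not tested either.

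**Figure D3:**
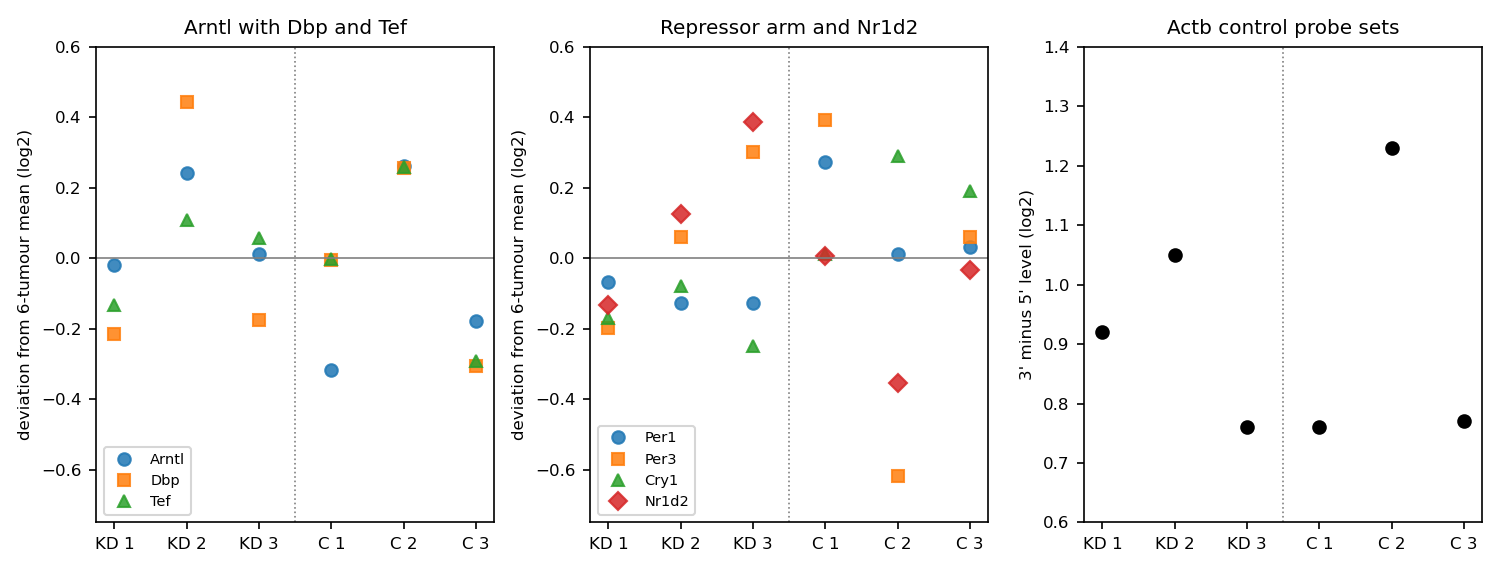
Deviation of each clock gene from its mean over the 6 tumours (y axis, log2) for Arntl, Dbp and Tef (left) and for Per1, Per3, Cry1 and Nr1d2 (middle), and the 3′ minus 5′ difference of the Actb control probe sets (right, log2), in Bptf KD tumours (KD) and Control tumours (C). Arntl and Dbp are both high in KD 2 (0.24 and 0.44) and C 2 (0.26 and 0.26), the tumours with the highest Actb difference (1.05 and 1.23).

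Of 25 other clock genes listed, 17 entered the test, and limma called 0 of them, against 0.811% of all genes. Nr1d1, Bhlhe41, Hlf and Rorb were dim, and the rest of the list was not analysed here. The 17 had a median difference of -0.063, beside 0.060 for all genes, and the groups did not overlap in 6 of 17, against 20.0% of all genes. At an unadjusted p under 0.05, 3 were higher (7.66% of all genes) and 2 lower (5.82% of all genes). Leaving out the tumour labelled Control 2, limma called 2 of the 17, Rora and Wee1, against 4.46% of all genes.

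Rora, the nuclear receptor that activates Arntl, had the smallest p of this list. It read 6.85, 6.78 and 6.72 in Bptf KD tumours, against 7.33, 7.52 and 7.31 in Control tumours. All Bptf KD tumours lay below all Controls, a ratio of 0.658 of Bptf KD over Control. The difference of -0.60 (SE 0.12, 95% interval -0.89 to -0.32) missed the threshold over all genes (limma adjusted p = 0.0883). It passed without the tumour labelled Control 2 (-0.54, limma adjusted p = 0.0437) and with array weights (-0.52, limma adjusted p = 0.00867). The limma adjusted p ran from 0.00867 to 0.335 over all alternatives. Array weights called 1676 of the 9248 genes tested, against 75 in the main fit. A second probe set above the dim level differed by -0.46, with no overlap between groups either. The third, which was dim, differed by -0.23 and its groups overlapped. With the mean of all its probe sets the difference was -0.43 (limma adjusted p = 0.218).

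Nfil3, the repressor at D-boxes, read 9.50, 9.66 and 9.36 in Bptf KD tumours, against 9.28, 8.60 and 8.88 in Control tumours. Every Bptf KD tumour lay above every Control, with a difference of 0.59 (SE 0.19, 95% interval 0.13 to 1.05, limma adjusted p = 0.267). Csnk1e, a kinase that marks the Per proteins for destruction, read 9.79, 9.89 and 10.09 in Bptf KD tumours, against 9.51, 9.23 and 9.52 in Control tumours. These groups did not overlap on either of its probe sets, and the difference on the brighter was 0.50 (SE 0.14, limma adjusted p = 0.205). Both genes passed with array weights, as 1676 of 9248 genes did (limma adjusted p = 0.0225 for Nfil3 and 0.0372 for Csnk1e). Over all alternatives the limma adjusted p ran from 0.0225 to 0.646 for Nfil3 and from 0.0372 to 0.580 for Csnk1e.

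Nampt, an enzyme of NAD synthesis that the clock drives, differed by 0.42 and Tipin, a partner of Timeless in DNA replication, by -0.37, with limma adjusted p of 0.337 and 0.339. Both passed with array weights, again among 1676 of 9248 genes (limma adjusted p = 0.0303 for Nampt and 0.0365 for Tipin). Over all alternatives the limma adjusted p ran from 0.0303 to 0.711 for Nampt and from 0.0365 to 0.705 for Tipin. Cry2, the second cryptochrome, read 7.40, 7.24 and 7.27 in Bptf KD tumours, against 7.52, 6.92 and 7.66 in Control tumours. It was low in the tumour labelled Control 2 alone, where Arntl was high, and the difference of -0.063 changed sign when Control 1 or Control 3 was left out. It was -0.29 without the tumour labelled Control 2 (95% interval -0.56 to -0.015, limma adjusted p = 0.167). Bhlhe40, a repressor at E-boxes, had the same shape, with 10.65, 10.41 and 10.62 in Bptf KD tumours and 11.13, 9.50 and 10.61 in Control tumours. Its difference of 0.15 (limma adjusted p = 0.913) was -0.31 without the tumour labelled Control 2 (limma adjusted p = 0.297). Wee1, a cell cycle kinase with E-boxes in its promoter in mouse, read 9.0, 9.21 and 9.12 in Bptf KD tumours, against 9.77, 8.50 and 9.76 in Control tumours. Its difference of -0.23 became -0.66 without the tumour labelled Control 2 (limma adjusted p = 0.0327, and between 0.0242 and 0.990 under all alternatives). Wee1 was named after its values were seen.

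**Figure D4:**
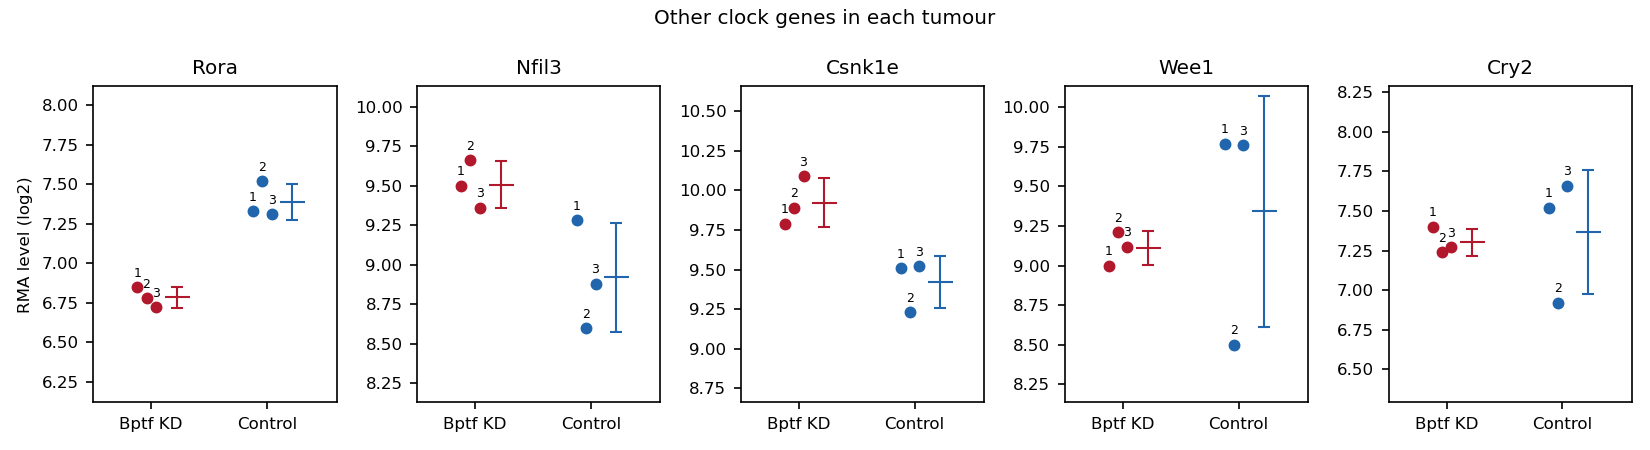
Log2 RMA level (y axis, 2 log2 units in every panel) of Rora, Nfil3, Csnk1e, Wee1 and Cry2 in Bptf KD tumours and Control tumours. Points are tumours with their number, and bars are the mean ± SD of 3. Rora lies lower and Nfil3 and Csnk1e higher in all Bptf KD tumours, while Wee1 and Cry2 are lowest in the tumour labelled Control 2.

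Cell type markers differed between the same groups of tumours. The mean of 11 adipocyte markers above the dim level, of 13 listed, was 6.83 to 7.80 in Bptf KD tumours and 9.73 to 10.6 in Control tumours. The mean of the 15 fibroblast markers, all above that level, was 10.6 to 10.96 in Bptf KD tumours and 11.6 to 11.9 in Control tumours, and that of 11 epithelial markers 10.8 to 10.97 in Bptf KD tumours and 9.65 to 10.5 in Control tumours. The means of these lists separated the groups as Rora, Nfil3, Csnk1e, Cry1 and Per1 did, and their part in those differences was not tested. By gene, the groups did not overlap in 11 of 11 adipocyte, 11 of 15 fibroblast and 4 of 11 epithelial markers, against 20.0% of all genes. The epithelial differences, 10 positive and 1 negative, ran from -0.33 for Krt19 to 1.86 for Cldn4. Limma called 7 of 11 adipocyte and 5 of 15 fibroblast markers lower in Bptf KD tumours, against 0.660% of all genes. Of the epithelial markers it called 0 of 11, against 0.811% of all genes called in either direction. In whole tumours, fewer cells of a type and less RNA per cell cannot be told apart. The 9 of 10 macrophage and neutrophil markers above the dim level had means of 10.7 to 11.01 in Bptf KD tumours and 10.4 to 10.8 in Control tumours. Of 10 keratinocyte markers, 4 were above the dim level, with means of 7.38 to 7.56 in Bptf KD tumours and, in Controls 1 to 3, of 7.17, 10.3 and 7.40. RMA gives no 0, so no marker can be said to be absent.

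Glucocorticoid hormones rise with the activity of the animal and induce Per1 directly, so 10 genes that respond to them were read beside it. Limma called 0 of the 10, against 0.811% of all genes. At an unadjusted p under 0.05, 3 of them were higher (7.66% of all genes) and 0 lower (5.82% of all genes), and their median difference was 0.025, beside 0.060 for all genes. Without the tumour labelled Control 2, 1 of the 10 had an unadjusted p under 0.05, against 27.0% of all genes. Fkbp5, a chaperone partner of the hormone's receptor, read 11.27, 11.03 and 11.38 in Bptf KD tumours, against 10.68, 10.60 and 10.66 in Control tumours. The groups did not overlap, and the difference of 0.58 (SE 0.13) did not pass over all genes (limma adjusted p = 0.125, and between 0.0102, with array weights, and 0.433 under the alternatives). Of the 10, Fkbp5 alone had groups that did not overlap, against 20.0% of all genes. It lay higher and Per1 lower in every Bptf KD tumour than in every Control. The part of these hormones in either difference was not tested. The kinase Sgk1 differed by 0.45, Errfi1 by 0.48 and the metallothionein Mt2 by -0.32 (limma adjusted p of 0.330, 0.345 and 0.546). Errfi1 differed by 0.32 without the tumour labelled Control 2.

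Outside the clock lists, the 9223 tested genes were ranked by how closely their deviations over the 6 tumours followed those of Dbp and of Arntl, as the root mean square difference in log2 units. Closest to Dbp were Ier5l (0.066), Ginm1 (0.086) and Cd99 (0.096), where the median over all genes was 0.328. Closest to Arntl were Vps29 (0.020), Fam151a (0.024) and Cript (0.027), with a median of 0.272. Ier5l read 8.99, 9.76 and 9.18 in Bptf KD tumours and 9.27, 9.42 and 9.0 in Control tumours, and Vps29 12.73, 13.04 and 12.77 in Bptf KD tumours and 12.44, 13.06 and 12.58 in Control tumours. Both were highest in Bptf KD 2 and the tumour labelled Control 2, the tumours with high Dbp and Arntl. With 6 tumours, many genes can lie this close to any given pattern, and no test was made.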

How the data were processed

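The authors deposited log2 expression values from RMA, which corrects background, normalises by quantiles and sums up the probes of a set, and the submitters' processing notes name no version of it. The log base was taken as 2, the scale RMA writes. The table holds 22690 probe sets, 64 of them controls. The platform annotation gave 1 gene for 20380, several for 691 and none for 1555. Symbols were matched by Entrez identifier to RefSeq (GRCm38.p6), with 29 unmatched and kept. For each gene the brightest probe set above the lowest 30% was used (9248 genes). Bptf KD minus Control was fitted with limma (version 3.58.1, R version 4.3.3) by lmFit and eBayes, tested on simulated data, with Benjamini-Hochberg adjustment over all genes and a threshold of 0.05. Values of Npas2, Per2 and other dim genes come from the fit without that filter. Exact permutation tests are two-sided. Genes were named by rule: all members, fixed genes of the other clock list, up to 4 with the smallest p of the other clock and glucocorticoid lists, up to 3 of closest pattern, and Bptf. The members and lists were chosen with earlier results of these data known. The labels call the tumours of a group triplicates. The sources used here do not say whether each grew in a separate mouse, so the p-values measure the spread between these samples. Precision is limited by having 3 arrays a group. Alternatives covered the filter, the choice of probe set, normalisation, variance model, array weights, replicate block, a muscle covariate and leaving out each tumour.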

Additional observations from a re-analysis of the deposited data

How the results depend on the processing

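The count of tested clock genes called was 0 in the main analysis and under every alternative but array weights, which called 1 (Cry1), and 1676 genes in all. It was 0 without each tumour in turn as well. The main analysis called 75 genes. That count was 42 with the lowest 50% of probe sets left out, 1 with an ordinary test without moderated variance, 47 with every probe set as its own feature, and 0 to 412 without each tumour in turn (0 without Bptf KD 3, 2 without Bptf KD 1, 6 without Bptf KD 2, 10 without Control 3 and 412 without the tumour labelled Control 2). The difference in phase score between the groups, 0.18 in the main analysis, ran from -0.089 with wider groups of genes to 0.41 without the tumour labelled Control 2. It also changed sign without Control 1 (-0.046), and was 0.078 without the filter on dim probe sets. Differences near 0 changed sign under some settings, and the cause was not tested. Per2 was -0.032 with the mean of its probe sets, -0.028 with the muscle covariate, and -0.14 to 0.21 without each tumour in turn. Per3 was -0.087 with array weights, -0.058 with the muscle covariate, and -0.17 to 0.33 without each tumour in turn. Dbp ranged from -0.18 to 0.17 without each tumour in turn. Tef was -0.0078 with the mean of its probe sets, -0.019 with a second quantile normalisation, and -0.12 to 0.16 without each tumour in turn. Cry2 ranged from -0.29 to 0.083 without each tumour in turn. Bhlhe40 was -0.071 with array weights, -0.048 with the muscle covariate, and -0.31 to 0.51 without each tumour in turn. Arntl, Clock, Npas2, Per1, Cry1 and Nr1d2 kept their sign under all alternatives run. Taken alone, the dimmer probe sets of Clock and of Nr1d2 had the opposite sign (0.070 and -0.067). A fit that took the replicate block into account called 107 genes and 0 of the 8 clock genes. Whether the numbers pair the tumours cannot be told from these values. The deviations of same-numbered tumours correlated at 0.0054, 0.28 and 0.37. Bptf KD 2 and 3 correlated best with the Control of their own number, but Bptf KD 3 nearly as well with Control 1 (0.35). Bptf KD 1 correlated best with the tumour labelled Control 2 (0.11). Probe set signal near the dim level limits what can be said of Npas2 and Per2.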
